A study of Mus musculus with 16 samples.

Results

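The 10 genes described here are core members of the Notch pathway: the receptors Notch1, Notch2 and Notch3, the ligands Jag1, Jag2 and Dll1, the DNA-binding factor Rbpj, and the target genes Hes1, Hey1 and Heyl. They were found on the array by the RefSeq accession of each probe, which matched 13 probes, with 2 probes each for Notch1, Notch2 and Rbpj. All 10 genes were among the 14587 genes tested, and the brighter probe of each was well above background on all 16 arrays. Notch receptors are cut when a ligand on a neighbouring cell binds them, and the released part of the receptor enters the nucleus, joins RBPJ and Mastermind coactivators and switches on Hes and Hey genes, which encode transcriptional repressors. In the kidney the pathway, mainly through Notch2, directs the formation of nephrons, and active Notch signalling has been described in podocytes of diseased glomeruli.

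The study measured polysome RNA from mouse kidney glomeruli on 16 single-colour arrays, 4 per group. Podocytes are the epithelial cells on the outer face of the glomerular capillaries. All mice had the C57BL/6N background and carried RiboTag with Nphs1-Cre, so that the HA-tagged ribosomal protein was made where the promoter of Nphs1, the nephrin gene of podocytes, was active. In normal mice, with no toxin, podocyte RNA came from polysomes precipitated with HA antibody (normal podocytes). A further 2 groups came from mice that also carried NEP25, a transgene that puts human CD25 on podocytes. These mice received LMB2, an immunotoxin against CD25, once at 0.625 ng per g of body weight by tail vein, and precipitated podocyte RNA was taken at 4 days (day 4 podocytes) or 7 days (day 7 podocytes). In the last group glomerular RNA of normal mice came from polysomes that had not been precipitated (normal glomeruli), so that it holds podocyte RNA as well. Nothing in the labels ties each array to a mouse of its own, so the p-values measure the spread between samples, which may be technical.

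A value is the log2 processed intensity of the gene's brighter probe minus the 75th percentile of that array, so 0 is the level of a fairly bright probe, and levels of different probes are not compared. Differences are log2 differences with limma's standard error (SE) and n = 4 arrays per group, and a gene was called where the Benjamini-Hochberg adjusted p over all 14587 genes was under 0.05. The normal podocyte and glomerular arrays shared 1 slide and both LMB2 groups the other, so the effect of LMB2 against normal podocytes cannot be told apart from slide or from the NEP25 transgene. Day 4 and day 7 are compared with the same 4 normal arrays. On the second slide day 7 filled 1 row and day 4 the other, so slide row and day cannot be told apart either. In bulk RNA, fewer cells of a type and less RNA per cell cannot be told apart.

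The labelled cell type was checked with marker genes. All 10 podocyte markers were higher in normal podocyte RNA than in glomerular RNA, with summed intensities of 2159 to 2299 against 686 to 896 times the array's 75th percentile. All 10 endothelial markers were lower there, with sums of 34.9 to 73.0 in podocyte arrays against 578 to 741 in glomerular arrays. Of the 10 mesangial and smooth muscle markers all were lower, with sums of 25.4 to 36.7 against 119 to 180. After LMB2 the podocyte markers had 1 gene higher and 4 lower at day 4, and 8 lower at day 7. All 6 parietal epithelial markers tested were higher at day 7 than in normal podocytes, with sums of 5.18 to 10.9 against 2.16 to 3.19. Proximal tubule sums were uneven between arrays of a group, with 105 on replicate 4 of normal podocytes, 143 on replicate 1 of day 4 and 190 on replicate 4 of day 7, while the lowest arrays of these groups had 33.0, 14.1 and 15.4. Fits without these 3 arrays were also made.

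**Figure D1:**
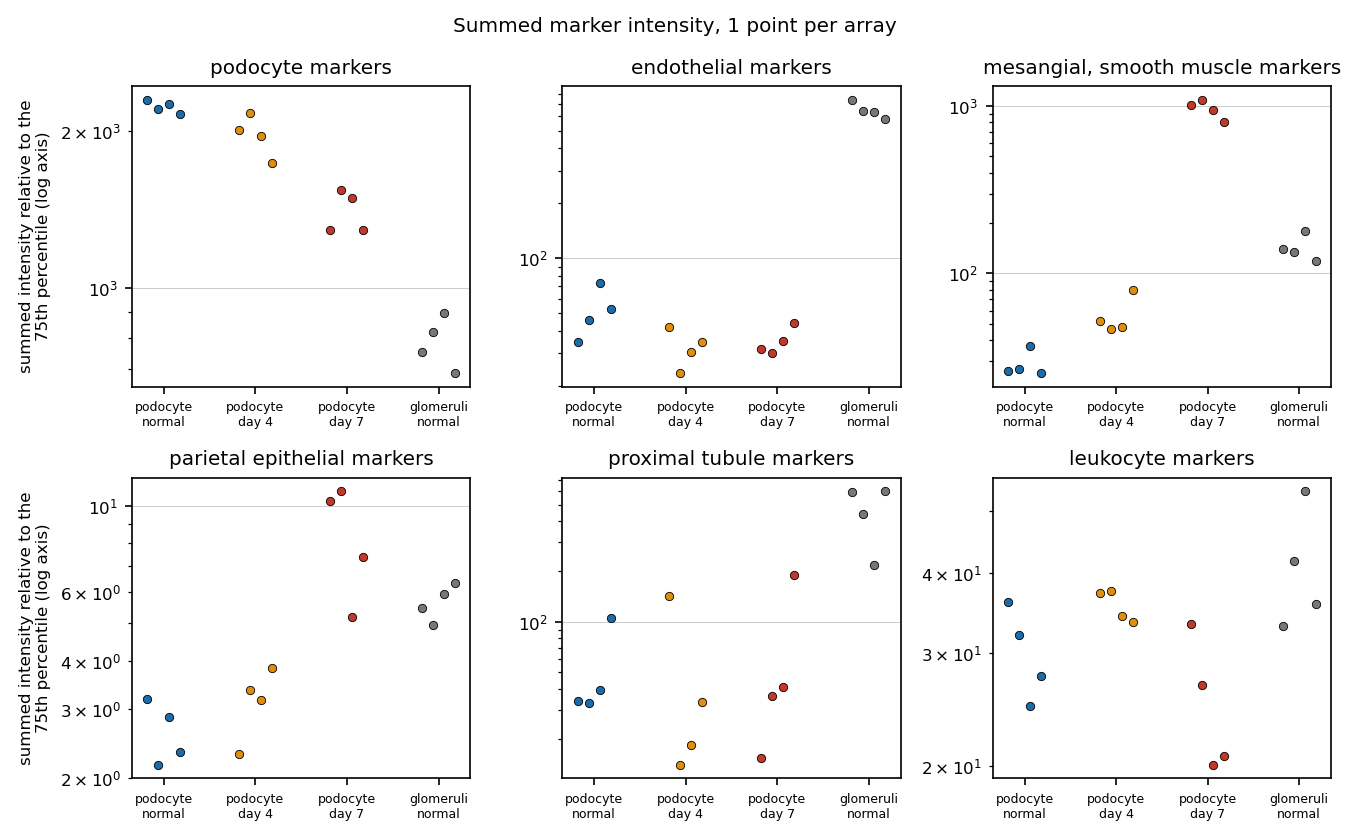
Summed intensity of marker genes relative to the array's 75th percentile (log axis), 1 point per array, for normal, day 4 and day 7 podocytes and normal glomeruli. Endothelial sums were 23.4 to 41.7 at day 4 and 30.1 to 43.9 at day 7, and mesangial and smooth muscle sums reached 802 to 1094 at day 7.

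Of the 3 receptors, Notch1 was called higher at both days after LMB2 and Notch2 lower at day 7, each by its brighter probe, and Notch3 was not called. Notch1, a receptor of many developing and regenerating tissues, had values of -3.32, -3.23, -2.77 and -3.32 in normal podocytes, -1.13, -0.97, 0.27 and 0.51 at day 4, and 1.12, 0.93, 1.33 and 0.48 at day 7, and of -0.61, -0.43, -0.73 and -0.87 in normal glomeruli. All LMB2 arrays lay above all normal podocyte arrays, and every day 7 array lay above every glomerular array. Notch1 was 7.12-fold higher at day 4 than in normal podocytes (log2 difference 2.83 ± 0.32, SE, adjusted p = 1.2e-05) and 17.5-fold higher at day 7 (4.13 ± 0.32, adjusted p = 1.2e-07). Day 7 exceeded day 4 by 1.29 ± 0.32 (adjusted p = 0.0068), although replicate 4 of day 4, at 0.51, was above replicate 4 of day 7, at 0.48. This last call was lost when both probes were averaged (1.35, adjusted p = 0.12). In uninjured mice Notch1 was 5.66-fold lower in podocytes than in glomeruli (-2.50 ± 0.32, adjusted p = 5e-06), with no overlap.

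The dimmer probe of Notch1 gave a different picture after LMB2. It was well above background on all 4 glomerular arrays and on no normal podocyte array, at least 7.92-fold lower in podocytes (adjusted p = 0.027). Among LMB2 arrays it was above background on replicate 3 of day 4, at -2.47, and replicate 3 of day 7, at 0.40. The other day 4 arrays were at -5.48, -6.60 and -6.22, and the other day 7 arrays at -5.19, -5.23 and -5.12. Its differences from normal podocytes were 1.11 ± 1.11 at day 4 and 2.51 ± 1.11 at day 7 and were not called (adjusted p = 0.51 and 0.087). The rise of Notch1 to day 4 and day 7 therefore rests on the brighter probe.

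Notch2, the receptor that nephron formation depends on, had values of 3.21, 3.37, 3.68 and 3.71 in normal podocytes, 3.08, 3.25, 3.16 and 2.85 at day 4, and 2.90, 2.63, 2.68 and 2.39 at day 7, and of 1.17, 1.62, 1.97 and 1.65 in normal glomeruli. All podocyte arrays, injured ones included, lay above all glomerular arrays. It was 3.71-fold higher in normal podocytes than in glomeruli (1.89 ± 0.17, adjusted p = 1.3e-07). At day 7 it was 1.79-fold lower than in normal podocytes, with no overlap (-0.84 ± 0.17, adjusted p = 0.00063), while the differences of -0.41 at day 4 and -0.43 between day 7 and day 4 were not called (adjusted p = 0.077 and 0.062). The difference between the days was called without replicate 4 of day 4 or replicate 1 of day 7 (-0.51 each, adjusted p = 0.046 and 0.045), with normexp (-0.51, adjusted p = 0.014) and in a fit of the 8 arrays compared (-0.43, adjusted p = 0.043), and that at day 4 without replicate 1 of normal podocytes (-0.50, adjusted p = 0.05). The dimmer Notch2 probe was above background on all podocyte arrays and on 2 of 4 glomerular arrays, and was called higher in podocytes (adjusted p = 8.4e-05), but its difference at day 7 was 0.12 ± 0.24 (adjusted p = 0.72). With both probes averaged the day 7 difference was -0.36 (adjusted p = 0.067), so the fall of Notch2 is a result of the brighter probe.

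Notch3, a receptor known for its part in vascular smooth muscle and mesangial cells, had -1.08, -0.58, 0.98 and 0.14 in normal podocytes, -0.17, -0.73, -0.01 and 0.42 at day 4, and 0.26, 0.37, 0.69 and 0.78 at day 7, and 3.13, 3.21, 3.39 and 2.96 in normal glomeruli. The glomerular arrays stood clear of all podocyte arrays, and the normal podocyte arrays spread over the range of both LMB2 groups. Notch3 was 9.91-fold lower in normal podocytes than in glomeruli (-3.31 ± 0.35, adjusted p = 7.4e-07). Its differences after LMB2, 0.01 at day 4 and 0.66 at day 7, were not called (adjusted p = 0.98 and 0.12). Without replicate 3 of normal podocytes, the highest of that group, the day 7 difference was 1.03 and was called (adjusted p = 0.0069).

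**Figure D2:**
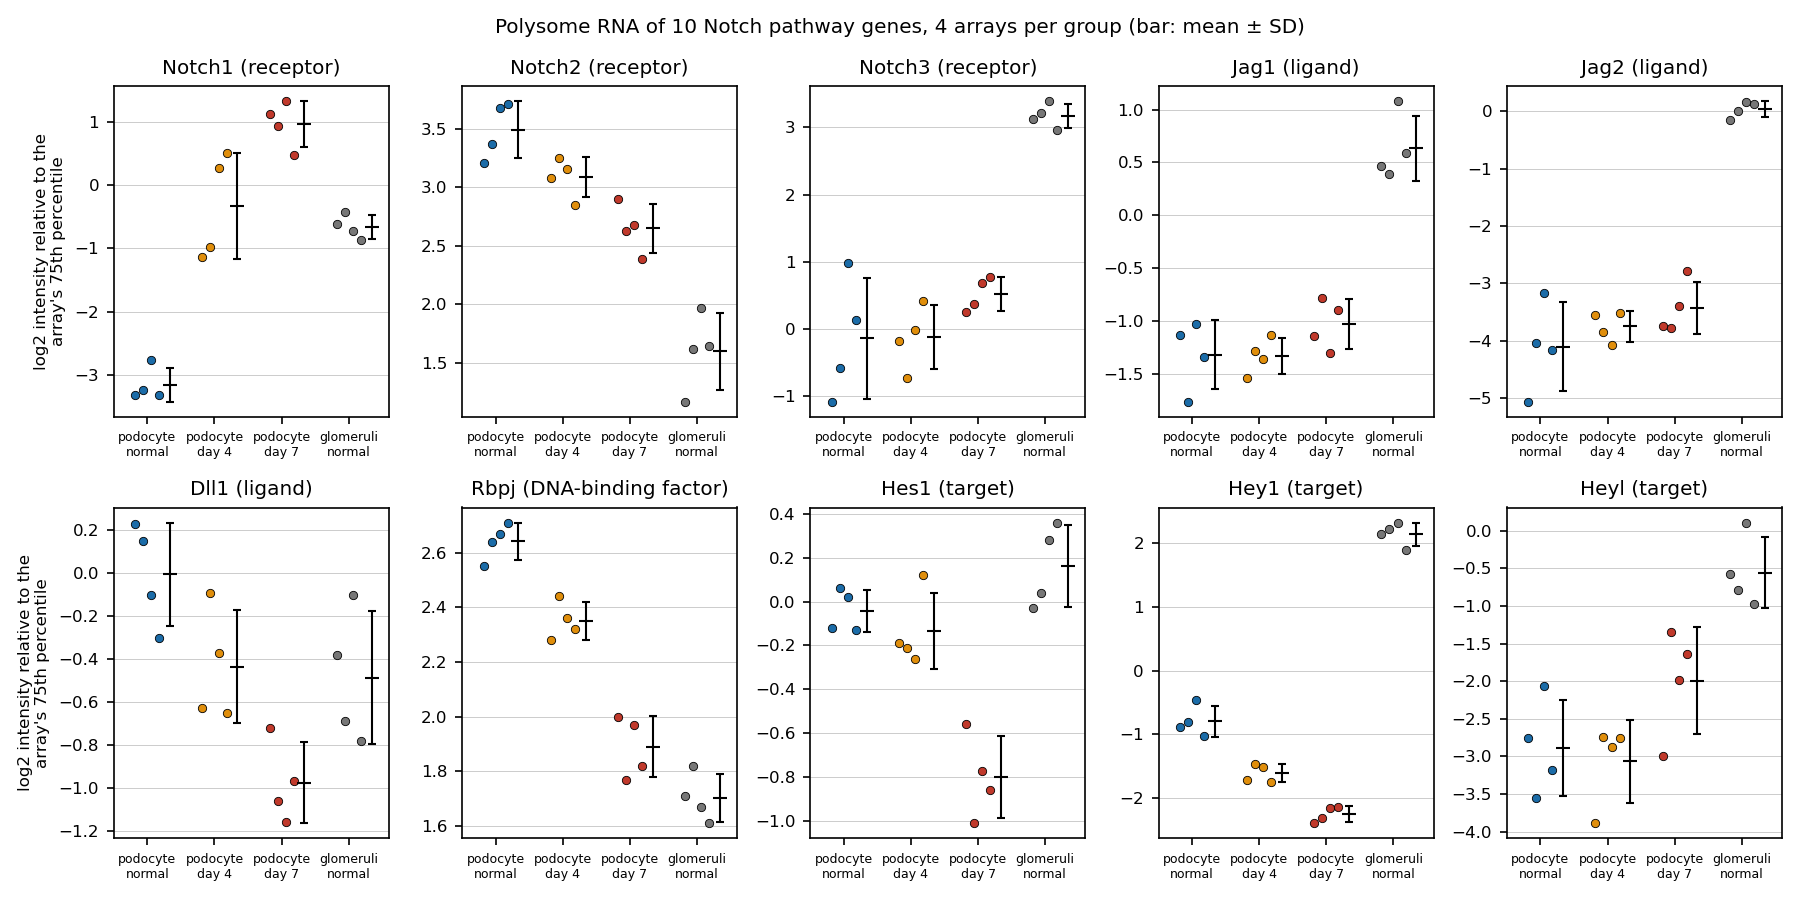
Values of the 10 genes on each array (log2 intensity relative to the array's 75th percentile, brighter probe), 1 panel per gene, with the mean and SD of 4 arrays beside the points. Notch1 climbs from a mean of -3.16 in normal podocytes through -0.33 at day 4 to 0.97 at day 7, while Hey1 descends from -0.80 through -1.61 to -2.25.

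**Figure D3:**
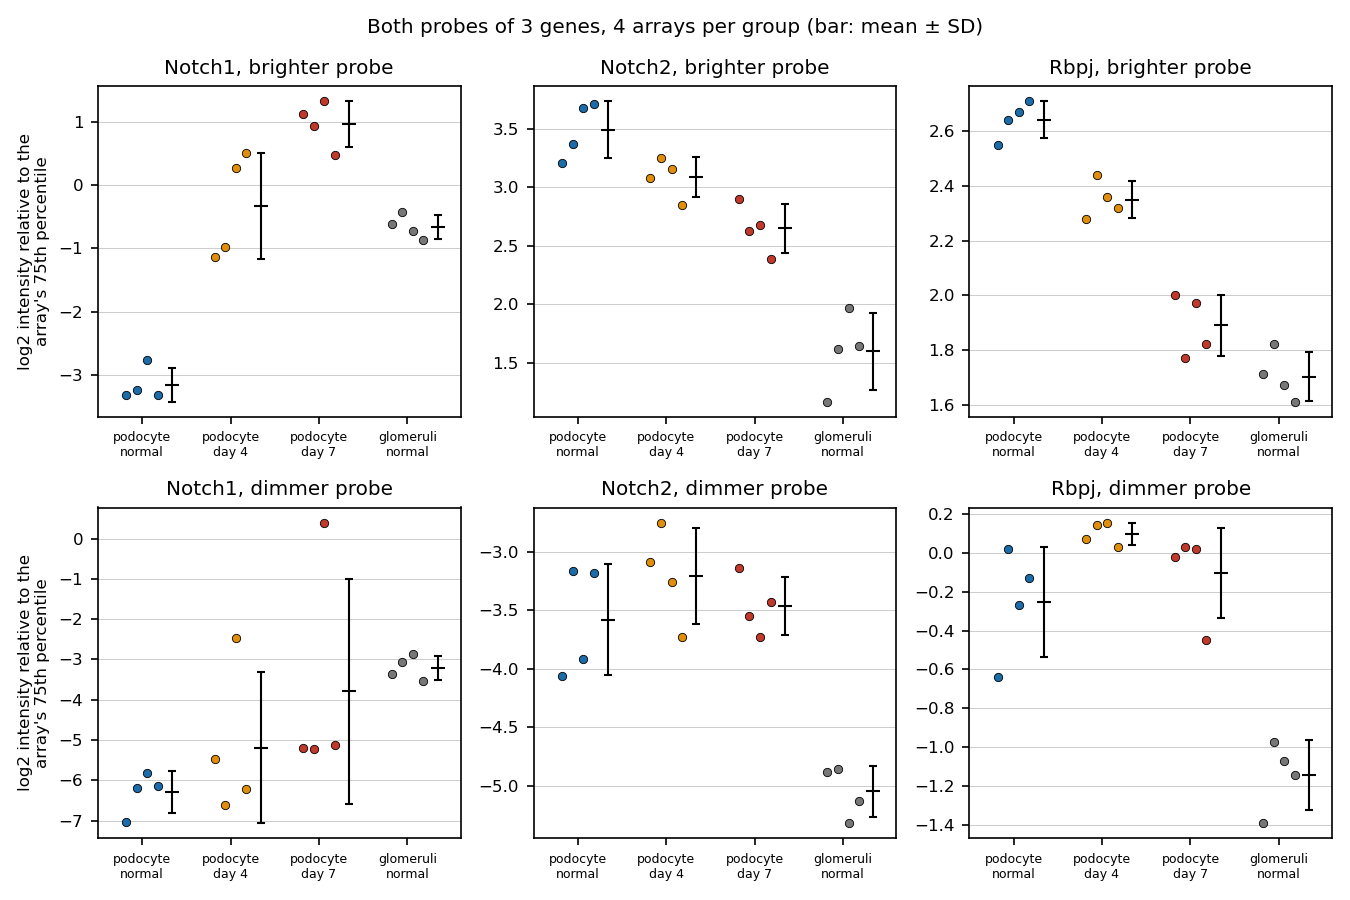
Both probes of Notch1, Notch2 and Rbpj on each array (log2 intensity relative to the array's 75th percentile), with the mean and SD of 4 arrays. The dimmer Notch1 probe stands at 0.40 on 1 day 7 array and below -5 on the other 3, and the dimmer Rbpj probe lies within -0.64 to 0.15 on all podocyte arrays.

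Among the ligands, both Jagged genes were low in podocytes before and after LMB2, and Dll1 was lower at day 7 than in normal podocytes. Jag1, a ligand of endothelial, smooth muscle and epithelial cells, had -1.13, -1.76, -1.03 and -1.34 in normal podocytes, -1.54, -1.28, -1.36 and -1.13 at day 4, and -1.14, -0.78, -1.30 and -0.89 at day 7, and 0.47, 0.39, 1.08 and 0.59 in normal glomeruli. The 3 podocyte groups overlapped one another and stayed under every glomerular array. Jag1 was 3.86-fold lower in normal podocytes than in glomeruli (-1.95 ± 0.18, adjusted p = 2.2e-07). The differences of -0.01 at day 4 and 0.29 at day 7 were not called (adjusted p = 0.96 and 0.19).

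Jag2, the other Jagged ligand, had -5.06, -4.03, -3.17 and -4.15 in normal podocytes, -3.55, -3.85, -4.08 and -3.51 at day 4, and -3.74, -3.78, -3.39 and -2.79 at day 7, and -0.16, 0.01, 0.15 and 0.13 in normal glomeruli. Its gap between podocytes and glomeruli was the widest of the 10 genes, 17.6-fold lower in podocytes (-4.14 ± 0.31, adjusted p = 2.7e-08). The podocyte groups again overlapped. Its differences from normal podocytes were 0.35 at day 4 and 0.68 at day 7, neither of them called (adjusted p = 0.42 and 0.078). Without replicate 3 of normal podocytes the day 7 difference was 0.99 (adjusted p = 0.0065).

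Dll1, a Delta-type ligand, had 0.23, 0.15, -0.10 and -0.30 in normal podocytes, -0.63, -0.09, -0.37 and -0.65 at day 4, and -0.72, -1.06, -1.16 and -0.97 at day 7, and -0.38, -0.69, -0.10 and -0.78 in normal glomeruli. Day 7 lay under every array of normal and day 4 podocytes, while day 4 overlapped the normal group. Dll1 was 1.96-fold lower at day 7 than in normal podocytes (-0.97 ± 0.17, adjusted p = 0.00025) and 1.46-fold lower than at day 4 (-0.54 ± 0.17, adjusted p = 0.027). The day 4 difference of -0.43 was not called (adjusted p = 0.073), but was without replicate 4 of normal podocytes (-0.53, adjusted p = 0.042) or 2 of day 4 (-0.54, adjusted p = 0.032). The call of day 7 against day 4 was lost without replicate 2 or 3 of day 4 (adjusted p = 0.091 and 0.061) or replicate 2 or 3 of day 7 (adjusted p = 0.063 and 0.07). Dll1 was called higher in normal podocytes than in glomeruli (0.48 ± 0.17, adjusted p = 0.02) although the groups overlapped, and the call was lost without replicate 1 or 2 of podocytes (adjusted p = 0.064 and 0.055) or replicate 2 or 4 of glomeruli (adjusted p = 0.061 and 0.069).

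Rbpj encodes the factor through which the cut receptors reach DNA. It had 2.55, 2.64, 2.67 and 2.71 in normal podocytes, 2.28, 2.44, 2.36 and 2.32 at day 4, and 2.00, 1.77, 1.97 and 1.82 at day 7, and 1.71, 1.82, 1.67 and 1.61 in normal glomeruli. The 3 podocyte groups were separate and in descending order, and day 7 met the upper end of the glomerular arrays. Rbpj was 1.92-fold higher in normal podocytes than in glomeruli (0.94 ± 0.08, adjusted p = 7.8e-08). It was 1.23-fold lower at day 4 (-0.29 ± 0.08, adjusted p = 0.012) and 1.68-fold lower at day 7 than in normal podocytes (-0.75 ± 0.08, adjusted p = 2.3e-06), and day 7 lay 0.46 ± 0.08 under day 4 (adjusted p = 0.00069). The day 4 call was lost with each array centred on its median (-0.22, adjusted p = 0.056), with quantile normalization (-0.19, adjusted p = 0.1) and without the 3 podocyte arrays highest in proximal tubule markers, 1 of each group (-0.25, adjusted p = 0.085).

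The dimmer Rbpj probe moved like the brighter one between podocytes and glomeruli and unlike it after LMB2. It was higher in normal podocytes by 0.89 ± 0.15 (adjusted p = 0.00011). After LMB2 it differed from normal podocytes by 0.35 ± 0.15 at day 4 and 0.15 ± 0.15 at day 7, neither of them called (adjusted p = 0.11 and 0.44). With both probes averaged the day 4 difference of Rbpj was 0.03 (adjusted p = 0.85).

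RBPJ binds DNA at the core TGGGAA, and promoters were searched for it on both strands, over the 250 bases before each start in a RefSeq promoter table (mouse build GRCm38.p6), in which a gene can have several starts. Promoter sequences were at hand for 7 of the 10 genes, not for Hes1, Hey1 and Heyl. The core occurred in 7094 of 32851 mouse promoter windows (21.6%), and Rbpj was the only one of the 7 genes that held it. The longer form GTGGGAA, which overlaps the core, occurred in 1779 windows (5.415%) and in none of the 7. The Rbpj sequence lies at chr5:53590096-53590345 on the plus strand and holds the core 149 bases before that start and its reverse complement 65 bases before. It belongs to 1 of 2 Rbpj starts in the table, both of which lie within the annotated gene, and the overlapping window of the other start holds the same reverse complement 205 bases before it. Of the other target genes measured, Hes7 (chr11:69120203-69120452, plus strand) and Hey2 (chr10:30842784-30843033, minus strand) each held GTGGGAA on the opposite strand, 180 and 207 bases before the start, and these 2 genes were chosen after their values were seen. Nrarp, the remaining target gene tested, held neither form. Hes5, listed as a target but not tested because its probe was too dim, held GTGGGAA at 2 places. The core within them lay 226 and 82 bases before the start. Capitals mark the core or its reverse complement. A match is a description of letters and not of binding.
Rbpj: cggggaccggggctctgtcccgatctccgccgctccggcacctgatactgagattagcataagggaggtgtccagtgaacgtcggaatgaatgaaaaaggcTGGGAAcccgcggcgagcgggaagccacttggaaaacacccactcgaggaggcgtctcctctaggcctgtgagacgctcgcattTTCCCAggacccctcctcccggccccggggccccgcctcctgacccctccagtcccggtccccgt
Hes7: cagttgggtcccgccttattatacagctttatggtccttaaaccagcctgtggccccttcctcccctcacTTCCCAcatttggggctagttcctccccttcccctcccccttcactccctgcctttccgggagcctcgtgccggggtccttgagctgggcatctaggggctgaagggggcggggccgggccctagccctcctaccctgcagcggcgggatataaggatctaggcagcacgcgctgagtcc
Hey2: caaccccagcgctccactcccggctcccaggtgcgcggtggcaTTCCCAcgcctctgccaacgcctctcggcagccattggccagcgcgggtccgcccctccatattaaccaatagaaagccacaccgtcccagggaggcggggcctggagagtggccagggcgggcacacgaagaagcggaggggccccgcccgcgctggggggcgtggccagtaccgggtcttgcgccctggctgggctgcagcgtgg

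Among the target genes, Hey1 was lower than in normal podocytes at both days and Hes1 at day 7, while Heyl was called at neither day. Hes1, a basic helix-loop-helix repressor and a classic Notch target, had -0.12, 0.06, 0.02 and -0.13 in normal podocytes, -0.19, -0.21, -0.26 and 0.12 at day 4, and -0.56, -1.01, -0.77 and -0.86 at day 7, and -0.03, 0.04, 0.28 and 0.36 in normal glomeruli. Every day 7 array lay under all other arrays. Hes1 was 1.69-fold lower at day 7 than in normal podocytes (-0.76 ± 0.12, adjusted p = 0.0001) and 1.59-fold lower than at day 4 (-0.67 ± 0.12, adjusted p = 0.001). The day 4 difference was -0.09 ± 0.12 (adjusted p = 0.6). Hes1 was the only one of the 10 genes not called between normal podocytes and glomeruli (-0.20 ± 0.12, adjusted p = 0.14).

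Hey1, a Hey-family repressor prominent in endothelium, had -0.89, -0.81, -0.46 and -1.02 in normal podocytes, -1.71, -1.47, -1.51 and -1.75 at day 4, and -2.39, -2.31, -2.15 and -2.13 at day 7, and 2.13, 2.21, 2.31 and 1.88 in normal glomeruli. The 4 groups did not overlap. Hey1 was 7.62-fold lower in normal podocytes than in glomeruli (-2.93 ± 0.13, adjusted p = 2.8e-10), 1.76-fold lower at day 4 (-0.81 ± 0.13, adjusted p = 0.00025) and 2.73-fold lower at day 7 than in normal podocytes (-1.45 ± 0.13, adjusted p = 4.2e-07). Day 7 lay 0.63 ± 0.13 under day 4 (adjusted p = 0.0019), a call that was lost with normexp background correction (-0.23, adjusted p = 0.13).

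Endothelial markers were measured beside Hey1. Of the 10 endothelial markers, 3 were lower and none higher at day 4, and 2 were lower and 2 higher at day 7, with summed intensities of 34.9 to 73.0 in normal podocytes, 23.4 to 41.7 at day 4 and 30.1 to 43.9 at day 7. All 10 were well above background on every array of each group. Ehd3, a marker of glomerular endothelium named here after its values were seen, fell by 0.73 at day 4 (adjusted p = 0.029) and by 1.41 at day 7 (adjusted p = 0.00015), and Emcn, an endothelial sialomucin, fell by 1.04 and 1.12. At day 7 Pecam1, an endothelial adhesion molecule, was higher by 0.37 (adjusted p = 0.043) and Ramp2, a receptor partner of adrenomedullin, by 0.52 (adjusted p = 0.045), and the other 6 markers were not called. The part of endothelial RNA in the Hey1 result was not tested.

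Heyl, a Hey-family gene of smooth muscle and pericytes, had -2.76, -3.56, -2.07 and -3.18 in normal podocytes, -3.89, -2.74, -2.88 and -2.75 at day 4, and -2.99, -1.35, -1.99 and -1.64 at day 7, and -0.58, -0.79, 0.11 and -0.97 in normal glomeruli. Podocyte groups overlapped, and all lay under the glomerular arrays. Heyl was 5.05-fold lower in normal podocytes than in glomeruli (-2.34 ± 0.39, adjusted p = 7.6e-05). Differences from normal podocytes were -0.17 at day 4 and 0.90 at day 7, neither of them called (adjusted p = 0.77 and 0.064). The day 7 difference was called without replicate 3 of normal podocytes (1.17, adjusted p = 0.021) or 1 of day 7 (1.23, adjusted p = 0.012). Day 7 was called above day 4 (1.07 ± 0.39, adjusted p = 0.049). Without the 3 arrays of highest proximal tubule signal the difference was 0.68 (adjusted p = 0.27), and without replicate 1 of day 4, at -3.89, it was 0.80 (adjusted p = 0.14). Leaving out any other array of these groups except replicate 1 of day 7 also lost that call, with differences of 0.86 to 1.18.

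Mesangial and smooth muscle transcripts stood beside the Notch3 and Heyl values at day 7. Their sum was 802 to 1094 at day 7 against 25.4 to 36.7 in normal podocytes, and 4 of 10 markers were higher and none lower. Tagln, an actin-binding protein, made up most of it with a difference of 6.01. Without Tagln the sum of the other 9 was 16.4 to 22.8 at day 7 against 11.8 to 18.7 in normal podocytes, and the other markers called were Des, an intermediate filament, at 3.02, Acta2, smooth muscle actin, at 1.60 and Cspg4, a pericyte proteoglycan, at 0.53 (adjusted p = 0.035). Pdgfrb, the receptor that marks mesangial cells and pericytes, differed by -0.47 (adjusted p = 0.072). The part of such cells in the Notch3 and Heyl values was not tested.

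Counted over the 10 genes, normal podocytes differed from glomeruli in 9 of them, 3 higher (Notch2, Dll1 and Rbpj) and 6 lower, where 79.0% of all genes tested were called. Values did not overlap for 8 of the 10, against 72.9% of all genes. The median difference of the 10 genes was -2.14, against 0.38 over all genes. Because podocyte RNA was precipitated and glomerular RNA was not, the precipitation step and the cell source cannot be told apart. At day 4 against normal podocytes 3 of the 10 were called, Notch1 higher and Rbpj and Hey1 lower, with 32.2% of all genes called. The groups did not overlap for 3 of them, against 33.3% of all genes. The median was -0.13 for the 10 genes and -0.12 over all genes.

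At day 7 against normal podocytes 6 of the 10 were called, Notch1 higher and Notch2, Dll1, Rbpj, Hes1 and Hey1 lower, and 58.2% of all genes were called. With each array centred on its median Heyl was also called higher, and with normexp background correction Heyl and Jag2, so that the 10 genes split into 2 higher and 5 lower or 3 higher and 5 lower. Values did not overlap for 6 of the 10, against 50.4% of all genes, and the medians were -0.23 for the 10 and -0.14 over all genes. Between day 7 and day 4, 6 of the 10 were called, Notch1 and Heyl higher and Dll1, Rbpj, Hes1 and Hey1 lower, where 33.6% of all genes were called. With quantile normalization the split was 1 higher and 4 lower. Values did not overlap for 4 of the 10, against 33.9% of all genes, and the medians were -0.07 and -0.06. In the 3 comparisons that involve normal podocytes the share of the 10 genes called was near that of all genes. Without the 3 arrays of highest proximal tubule signal the counts of the 10 genes were 9 between podocytes and glomeruli, 2 at day 4, 6 at day 7 and 5 between the days.

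**Figure D4:**
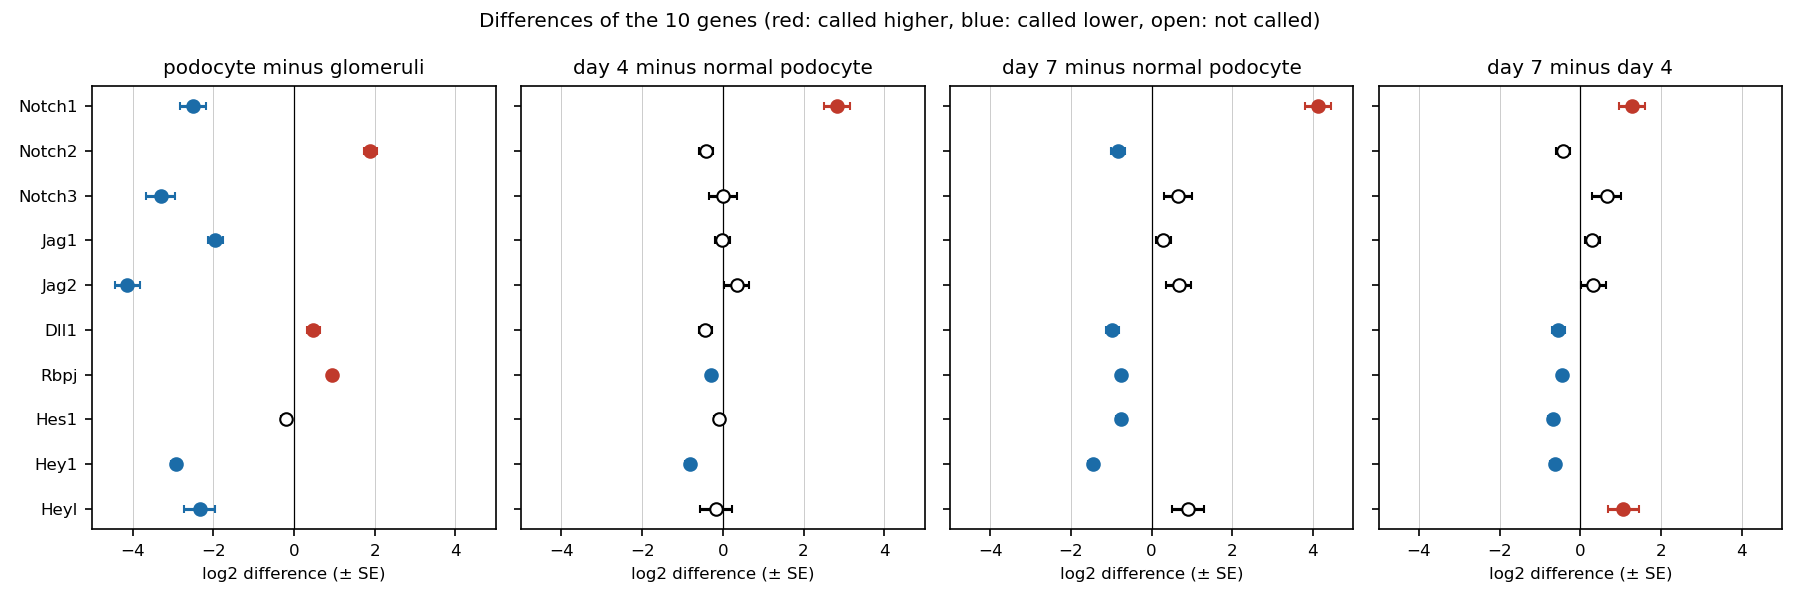
Log2 differences of the 10 genes with SE in 4 comparisons, filled red where called higher, filled blue where called lower and open where not called. Notch1 is lower in podocytes than in glomeruli, at -2.50, and higher after LMB2, at 2.83 and 4.13, while most called differences of the other genes at day 7 lie between -1.45 and -0.75.

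The rest of the pathway was followed with a list of 59 further genes, of which 55 were tested. Between normal podocytes and glomeruli 30 of the 55 were higher and 13 lower, 78.2% called against the 79.0% of all genes. The median was 0.50 for the 55 genes, against 0.38 over all genes. Among the receptors, ligands and glycosylation genes with lower values, Dlk1, a non-canonical Delta-like protein, differed by -5.02 ± 0.42, Dll4, the Delta ligand of endothelium, by -3.81 ± 0.28, Mfng, a Fringe glycosyltransferase that modifies Notch receptors, by -3.92 ± 0.17, and Notch4, the endothelial receptor, by -3.00 ± 0.19. Nrarp, a target gene that dampens Notch signalling, was above background on all glomerular arrays and on no podocyte array, at least 19.5-fold lower. Dtx1, a Deltex regulator of Notch, was likewise at least 11-fold lower. Nrarp and Dtx1 were tested only because all glomerular arrays showed them well above background. Their p-values therefore lend no weight to the difference and are not given, though both genes are among the 13 counted lower. With only probes well above background on all 16 arrays, 30 of 52 genes were higher and 10 lower.

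Among genes of receptor processing and nuclear partners more were higher than lower in podocytes, as over all genes, of which 51.4% were higher and 27.6% lower. Of 8 cleavage genes 4 were higher and 1 lower, with Ncstn and Aph1a, subunits of γ-secretase, at 1.22 ± 0.19 and 0.97 ± 0.11, and Psen2, a catalytic subunit, at -1.54 ± 0.13. Of 5 glycosylation genes 2 were higher, Pofut1, the O-fucosyltransferase of Notch, at 1.29 ± 0.11 and Poglut1, an O-glucosyltransferase, at 1.03 ± 0.12, and 1 lower. Of 14 genes of endocytosis and turnover 8 were higher, among them Mib2, a ubiquitin ligase for ligands, at 1.45 ± 0.08, and Dtx4 at 1.26 ± 0.28, and 3 lower.

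Of 8 nuclear coactivators 6 were higher, led by Maml3, a Mastermind protein, at 1.67 ± 0.08, with Kat2b, an acetyltransferase, at 1.21 ± 0.12, and 1 was lower, Maml2, at -1.44 ± 0.15. Of 13 corepressors 9 were higher, led by Tle4, a Groucho-type corepressor, at 1.76 ± 0.16, and L3mbtl3 at 1.31 ± 0.13, and 3 lower. Hey2, a Hey-family target, was higher in podocytes by 0.94 ± 0.25 (adjusted p = 0.0033). The Hes5 probe was well above background on none of the 16 arrays, and Dlk2 and Aph1c had no matching probe.

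At day 4 against normal podocytes 6 of the 55 were higher and 10 lower, 29.1% called against 32.2% of all genes, and with normexp and quantile normalization 4 were higher and 11 lower. Dll3, a Delta-like protein known to block Notch signalling within a cell, was higher by 0.91 ± 0.18 (adjusted p = 0.0018). Its dimmer probe was well above background on all 8 LMB2 arrays and on none of the 8 normal ones. That probe was at least 25.9-fold higher at day 4 (adjusted p = 1.3e-07) and at least 21.2-fold higher at day 7 (adjusted p = 1.1e-07), so the probes of Dll3 differ in size but not in direction. Of 4 receptors and ligands 2 were lower, Notch4 at -0.68 ± 0.19 and Dll4 at -1.02 ± 0.28 (the endothelial marker sums are given above, and their part in these values was not tested). The Dll4 call was lost with normexp background correction (-0.12, adjusted p = 0.48).

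Over all genes 12.3% were called higher and 19.9% lower at day 4. Among the glycosylation genes 3 of 5 were lower: Poglut1 at -0.90 ± 0.12, Lfng, the Fringe enzyme that tunes the response to Delta and Jagged ligands, at -0.71 ± 0.20, and Pofut1 at -0.59 ± 0.11. The Lfng call was lost without the 3 arrays of highest proximal tubule signal (-0.63, adjusted p = 0.057). The dimmer Pofut1 probe, above background on all 16 arrays, was not called (-0.16, adjusted p = 0.6). No cleavage gene of 8 was called by limma. Of 14 endocytosis and turnover genes 3 were higher and 1 lower, with Numbl, a relative of the Notch inhibitor Numb, at 0.59 ± 0.16 and Dtx3 at 0.64 ± 0.22. The Dtx3 call was lost without replicate 1, 2 or 4 of normal podocytes or 2, 3 or 4 of day 4 (adjusted p from 0.059 to 0.13). Dtx1 was called higher (adjusted p = 0.0037), but was above background on 2 of 4 day 4 arrays and on no normal podocyte array, and the call was lost with normexp and quantile normalization (adjusted p = 0.12).

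Of 8 coactivators 1 was higher at day 4, Crebbp, an acetyltransferase, at 0.57 ± 0.11, and 2 were lower, Maml3 at -0.47 ± 0.08 and Kat2b at -0.39 ± 0.12. With the probes of Maml3 averaged its difference was -0.08 (adjusted p = 0.67). Of 13 corepressors L3mbtl3 was higher at 0.45 ± 0.13, and Hdac1, a histone deacetylase, and Ctbp1 were lower at -0.37 ± 0.09 and -0.33 ± 0.08. The Kat2b call was lost without replicate 4 of normal podocytes or replicate 3 or 4 of day 4 (adjusted p from 0.06 to 0.076), and that of L3mbtl3 without replicate 2 of day 4 (adjusted p = 0.051). None of 3 target genes was called, with Hey2 at -0.42 ± 0.25 (adjusted p = 0.22).

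At day 7 against normal podocytes 9 of the 55 were higher and 23 lower, 58.2% called, the same share as over all genes, and with quantile normalization or median centring 12 were higher and 18 lower. Lfng turned the other way from day 4: it ranged from -0.28 to -0.03 in normal podocytes, from -1.20 to -0.64 at day 4 and from 1.35 to 2.08 at day 7. No groups overlapped, and Lfng was higher at day 7 by 1.80 ± 0.20 against normal podocytes (adjusted p = 3.4e-06) and by 2.51 ± 0.20 against day 4 (adjusted p = 8.9e-07). Of 14 endocytosis and turnover genes 5 were higher and 4 lower than in normal podocytes, with a median difference of 0.04. Dtx3 was higher by 1.74 ± 0.22 and Neurl1a, a Neuralized ubiquitin ligase, by 1.42 ± 0.21, while Mib2 was lower (-0.95 ± 0.08, adjusted p = 3.8e-07). Dtx1 was called higher (adjusted p = 0.0019) but was above background on 1 day 7 array and on no normal podocyte array, and the call was lost with normexp and quantile normalization (adjusted p = 0.099).

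Over all genes 21.8% were called higher and 36.4% lower at day 7. Of the 5 glycosylation genes 3 were lower, Poglut1 at -1.30 ± 0.12, Pofut1 at -0.85 ± 0.11 and Rfng, another Fringe enzyme, at -0.41 ± 0.13, while Mfng was not called (0.04 ± 0.17, adjusted p = 0.86). The dimmer probes of Pofut1 and Rfng, above background on all 16 arrays, were not called (-0.42 and -0.11, adjusted p = 0.11 and 0.66). Of 8 cleavage genes 4 were lower and none higher, 50% called against 58.2% of all genes, among them Adam10, the protease of the first ligand-driven cut, at -0.54 ± 0.11, Psen2 at -0.45 ± 0.13 and Aph1b, a γ-secretase subunit, at -0.46 ± 0.13. The calls of Psen2 and Aph1b were lost with quantile normalization (adjusted p = 0.055 and 0.052). The dimmer Aph1b probe, also above background on all 16 arrays, was not called (-0.21, adjusted p = 0.35). Of 8 coactivators 3 were lower and none higher, Maml3 at -0.92 ± 0.08, Kat2b at -0.57 ± 0.12 and Kat2a, a related acetyltransferase, at -0.51 ± 0.16. The dimmer probes of Maml3, above background on all podocyte arrays, were not called (-0.53 and -0.21, adjusted p = 0.24 and 0.3).

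Of 13 corepressors 7 were lower and none higher at day 7, 53.8% called against 58.2% of all genes, with Tle4 at -0.90 ± 0.16, Cir1, a corepressor that binds RBPJ, at -0.57 ± 0.11 and Spen, another RBPJ partner, at -0.51 ± 0.18. The call of Spen was lost with quantile normalization (-0.33, adjusted p = 0.16) and without replicate 4 of normal podocytes or 2 of day 7 (adjusted p = 0.08 and 0.088). Dll4 was above background on no day 7 array, at least 4.46-fold lower than in normal podocytes (adjusted p = 1.6e-05), and this call was lost with normexp background correction (-0.26, adjusted p = 0.068). Notch4 was lower by 0.74 and Dll3 higher by 1.00 ± 0.18. Among 3 target genes 2 were called higher, Hes7, a Hes gene of the segmentation clock, at 0.41 ± 0.12 (adjusted p = 0.0078), and Nrarp, whose signal was above background on no podocyte array of any group, so that no fold is given. The Nrarp call was lost with quantile normalization alone (adjusted p = 0.054) and after normexp (adjusted p = 0.27). Hey2 differed by -0.17 ± 0.25 (adjusted p = 0.58).

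**Figure D5:**
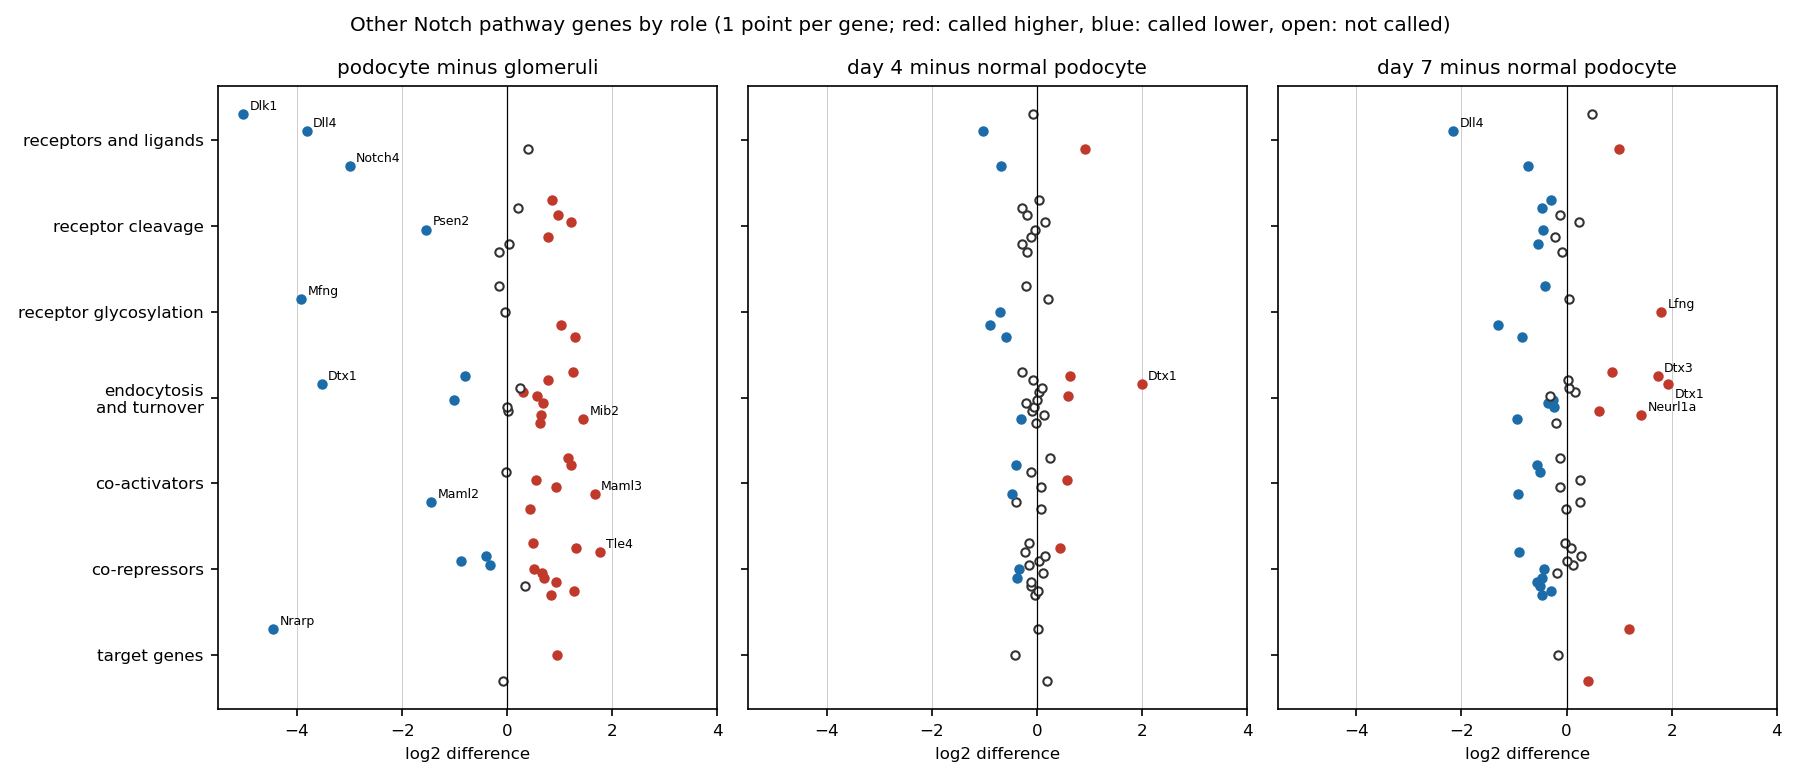
Log2 differences of the 55 other pathway genes by role in 3 comparisons, 1 point per gene, filled red where called higher, filled blue where called lower and open where not called. Co-repressors lie mostly right of 0 in podocytes against glomeruli (9 of 13 higher) and at or left of 0 among the called genes at day 7 (7 of 13 lower), and Nrarp and Dtx1 rest on probes not well above background on most podocyte arrays.

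Between day 7 and day 4, 7 of the 55 were higher and 13 lower, 36.4% called against 33.6% of all genes. After Lfng, Neurl1a was higher at day 7 by 1.28 ± 0.21, Dtx4 by 1.16 ± 0.28, Dtx3 by 1.09 ± 0.22 and Maml2 by 0.66 ± 0.15. Among the lower genes Tle4 differed by -0.68 ± 0.16, Maml3 by -0.45 ± 0.08, Cir1 by -0.44 ± 0.11 and Ncor1, a nuclear corepressor, by -0.43 ± 0.12. Poglut1 differed by -0.40 ± 0.12, Psen2 by -0.41 ± 0.13, Psenen, a γ-secretase subunit, by -0.32 ± 0.11 and Crebbp by -0.32 ± 0.11. Several of these calls hung on single arrays: those of Psen2 and Psenen were lost without replicate 2 or 3 of day 4, and those of Poglut1 and Psenen without replicate 4 of day 7. Crebbp was not called without replicate 2, 3 or 4 of day 4 or 3 or 4 of day 7. Its call was also lost with quantile normalization (adjusted p = 0.052) and with normexp and quantile normalization (adjusted p = 0.068). The same held with median centring (adjusted p = 0.077) and in a fit of the 8 arrays compared (adjusted p = 0.075). Poglut1 was not called without replicate 1 or 2 of day 4, and Psen2 without replicate 3 of day 7. Without replicate 2 of day 7 the calls of Psen2, Psenen, Poglut1 and Ncor1 were lost, and without replicate 1 of day 7 that of Psenen. Without the 3 arrays of highest proximal tubule signal, Psen2 (adjusted p = 0.076), Psenen (adjusted p = 0.068), Poglut1 (adjusted p = 0.12), Crebbp (adjusted p = 0.1) and Nrarp (adjusted p = 0.08) were not called. Dll4 was called lower (adjusted p = 0.0068), but 3 of 4 day 4 arrays and no day 7 array had it above background, and the call was lost with normexp (adjusted p = 0.38) and with normexp and quantile normalization (adjusted p = 0.11). Notch4 and Hey2 were not called (-0.06 and 0.25, adjusted p = 0.84 and 0.48).

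Genes with the most similar course to the widest-ranging receptor, ligand and target were sought over the 16 arrays by the root mean square distance of centred log2 values, as a description. For Notch1 these were Slc2a3, a glucose transporter, and Trim59, a TRIM-family ubiquitin ligase, each at a distance of 0.28, and Mir17hg, the host gene of a microRNA cluster, at 0.39. Slc2a3 averaged -2.71 in normal podocytes, 0.25 at day 4, 1.52 at day 7 and -0.22 in glomeruli. For Jag2 they were Dchs1, an atypical cadherin, at 0.27, Tmem44, a membrane protein, at 0.30, and Mn1, a transcriptional coregulator, at 0.31. For Hey1 they were the endothelial marker Ehd3 at 0.33, Parvb, a focal adhesion protein, at 0.34, and Dipk1b at 0.36. Ehd3 averaged 4.47 in normal podocytes, 3.74 at day 4, 3.06 at day 7 and 7.68 in glomeruli.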

How the data were processed

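Polysome RNA of normal podocytes, day 4 and day 7 podocytes after LMB2 and normal glomeruli was measured on 16 single-colour Agilent arrays, 4 per group, grouped by their titles in the labels. Per the file headers, the deposited processed intensity was made by Feature Extraction 11.5.1.1 with background subtraction and is not normalized between arrays; the deposited median intensity of spot and local background is uncorrected. The authors' deposited value table holds log2 values. A column equals the log2 processed intensity of an array plus a constant (0.181 to 0.245), whose origin is not given in the sources used here. For 6 columns, those of normal podocytes and glomeruli numbered 1 to 3, that array was a different replicate in the same group. Arrays had 49.3% to 57.5% of spots well above background, 75th percentiles of 226 to 412 and 0 saturated spots. Precision is limited by the number of arrays.

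Control and outlying spots were left out and spots of 1 probe averaged (55681 probes). Accessions were matched to RefSeq gene symbols for 26582 probes. Named probes measured on all arrays were kept if every array in 1 group or more showed them well above background (19075, after 58 with a missing value were set aside), and the kept probe with the highest mean stood for a gene. Limma 3.58.1 (lmFit, then eBayes, in R 4.3.3) with group alone as the term and 12 residual degrees of freedom was fitted to all 16 arrays, read with Python 3.11.15. P-values of a dimmer probe come from the same model over the named probes measured on all arrays, without the filter on dim probes. Tested on simulated data for day 4 against normal over all 14587 genes, the fit recovered 73% of genes changed 2-fold and 93% of those changed 4-fold. The simulation used independent noise and changed a far smaller share of genes than the 32.2% called in the data. These recovery rates therefore need not hold for the data. For a bound ("at least"), each array of the dim group took its lowest value well above background, or the probe's value if higher, and their mean was set against that of the bright group.

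All 10 genes are named in each comparison; of the other pathway genes, up to 3 called per role with the largest difference are named, and Notch4, Dll4, Hes5, Hey2 and Nrarp in any case. A few listed genes are not reported here by name. The genes and lists were chosen with earlier results of these data known. Alternatives were background correction (normexp, offset 50, on the median intensities because the files hold no mean intensity), normalization, filters, probe averaging, the value table, a replicate block and leaving out arrays. Same-numbered podocyte and glomerular arrays deviated together from their group means (r = 0.423 to 0.505, against at most -0.0721 for other numbers). These arrays also lay side by side on their slide, so paired samples and shared slide position cannot be told apart. The block changed none of the calls of the 10 genes there. Promoter sequences are from RefSeq.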

Additional observations from a re-analysis of the deposited data

Results flagged for a closer look

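In 52 tests of single arrays within a group, 4 stood apart from the other 3 arrays of their group; chance gives about 1 in 20. The dimmer Notch1 probe was at 0.40 on replicate 3 of day 7, against -5.23 to -5.12 on the others. The brighter Notch1 probe was at -2.77 on replicate 3 of normal podocytes, against -3.32 to -3.23. The dimmer Rbpj probe was at -0.45 on replicate 4 of day 7, against -0.02 to 0.03. Heyl was at -3.89 on replicate 1 of day 4, the array highest in proximal tubule markers in its group, against -2.88 to -2.74.

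The effects of LMB2 at day 7 and at day 4, each against normal podocytes, differed by limma's test of the difference (log2, day 7 minus day 4) for 6 of the 10 genes. This is the comparison of day 7 with day 4 given above, in which 33.6% of all genes were called. Notch1 differed by 1.29 and Heyl by 1.07 upward, and Dll1 by -0.54, Rbpj by -0.46, Hes1 by -0.67 and Hey1 by -0.63. Leaving out 1 array lost the Heyl call in 7 of 8 fits and the Dll1 call in 4 of 8, and further limits of these calls are given above. Of the named other pathway genes, the difference was upward for Lfng (2.51), Neurl1a (1.28), Dtx4 (1.16), Nrarp (1.16, well above background on none of these arrays), Dtx3 (1.09) and Maml2 (0.66). The Nrarp call was lost with normexp (0.26, adjusted p = 0.17) and with normexp and quantile normalization (0.20, adjusted p = 0.15). It was downward for Dll4 (-1.14, above background on no day 7 array and not called with normexp, adjusted p = 0.38), Tle4 (-0.68), Maml3 (-0.45), Cir1 (-0.44), Ncor1 (-0.43), Psen2 (-0.41), Poglut1 (-0.40), Psenen (-0.32) and Crebbp (-0.32).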

How the results depend on the processing

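The number of the 10 genes called was 9 between podocytes and glomeruli under each alternative that keeps all arrays, 2 to 3 at day 4, 5 to 8 at day 7 and 5 to 6 between the days. Leaving out 1 array gave 8 to 9, 3 to 4, 6 to 9 and 4 to 7 in the same order, and for the other pathway genes 42 to 44, 14 to 16, 28 to 33 and 15 to 19. The replicate block left 8 of 16 pathway calls at day 4 and 12 of 20 between the days; in comparisons with LMB2 groups same-numbered arrays correlated at -0.411 to 0.486, so there the samples share only a number. With the block the call of Notch1 between the days (adjusted p = 0.083), of Dll1 between the days (adjusted p = 0.089) and of Rbpj at day 4 (adjusted p = 0.11) was lost, and Notch3 between the days was called (adjusted p = 0.047). Slide as a block could not be run against normal podocytes, since slide and group coincide; the other comparisons lie within 1 slide and were also fitted on their 8 arrays alone. Centring each array on its median moved the median over all genes at day 7 to -0.03, from -0.14, normexp with quantile normalization moved that of podocytes against glomeruli to 0.17, from 0.38, and quantile normalization moved it to 0.25; the calls of the 10 genes between podocytes and glomeruli held. Median centring also turned the split over all genes at day 4 to 2024 higher and 2104 lower, from 1797 and 2904. At day 7 it split the 10 genes into 2 higher and 5 lower and normexp into 3 and 5, with Heyl (and Jag2 with normexp) called higher.

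Signs reversed for a few differences, of which Rbpj at day 4 alone was called in the analysis reported above; the cause was not tested. At day 4 these were Notch3 (0.01, against -0.0048 with quantile normalization, -0.0094 with the value table and -0.30 to 0.38 on leaving out 1 array), Jag1 (-0.01, against 0.057 with median centring, 0.047 without the 3 arrays high in proximal tubule markers, an alternative chosen after seeing the data, and -0.16 to 0.081 on leaving out 1 array), Heyl (-0.17, against 0.091 with normexp, 0.0047 without those arrays and -0.39 to 0.10), Rbpj (-0.29, against 0.03 with probes averaged) and Nrarp (0.02, against -0.059 and -0.28 with quantile normalization after and without normexp, and -0.26 to 0.36). Hey2 at day 7 ranged from -0.28 to 0.045 on leaving out 1 array, and Notch4 between the days from -0.15 to 0.056. With GTGGGAA in place of TGGGAA, 0 of the 7 promoters held a match. Of the values of single genes, 2020 kept direction and side of the threshold, 115 lost a call and 15 gained one. Dim probes limit Nrarp, Dtx1, Dll4 and the dimmer Notch1, Notch2 and Dll3 probes.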
